A study of Mus musculus with 6 samples.

Results

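The transcripts described here encode 7 autophagy receptors and scaffolds, together with the kinase TBK1 that acts on several of them. Most of the 7 bring ubiquitin-tagged cargo to the autophagosome. The 8 genes are Sqstm1, Nbr1, Optn, Tax1bp1, Calcoco1, Tollip, Wdfy3 and Tbk1, and they were picked by gene symbol from the 22298 rows of the expression table. RNA was sequenced from ocular lenses of C57BL/6 mice at postnatal day 0, either wild type (WT) or carrying the genotype Fyco1-/-. The labels name no other allele and no treatment, and they do not say how the allele was made. Each genotype had 3 libraries, lettered A, B and C, and each library came from a pool of 10 lenses described as a biological replicate.

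Selective autophagy begins when a receptor binds ubiquitin on a protein aggregate, a damaged organelle or a microbe and, with a short LC3-interacting motif, binds the LC3 and GABARAP proteins on the growing autophagosome membrane. TBK1 phosphorylates several receptors and raises their affinity for ubiquitin or LC3. FYCO1, the protein missing by label from the mutant lenses, acts later, tethering finished autophagosomes to kinesin. Lens fibre cells degrade their organelles as they mature, and autophagy is one of the degradative routes active in the lens. WDFY3 (also called ALFY) and TBK1 are grouped here by function, since neither is a classical ubiquitin receptor itself. CALCOCO1 is included as a receptor for the endoplasmic reticulum and Golgi.

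Expression was given as FPKM, fragment counts scaled to gene length and to a library total, which allows levels to be set side by side between genes. The size of the smallest steps in the values put the libraries at an estimated 17060000 to 20040000 fragments. At that depth Tax1bp1 rested on an estimated 4491 to 6265 fragments per library, Sqstm1 on 2377 to 4196 and Tbk1, the most thinly covered, on 333 to 587. Fyco1 itself had a mean of 5.24 ± 0.145 FPKM in WT against 4.69 ± 0.156 FPKM in Fyco1-/- (all means here are given ± SD over n = 3 libraries) and was not called lower (limma adjusted p = 0.273), so Fyco1-/- below means the libraries so labelled. All 10 lens fibre markers were in the table, and their summed level was 132856 to 137000 FPKM in WT and 135884 to 140190 FPKM in Fyco1-/-. Cryaa alone had a mean of 118085 FPKM over all libraries, so the sum says little of the other fibre markers. Of the 10, 2 were called higher and 3 lower, where 3.42% and 5.02% of all tested genes were. The summed level of 8 lens epithelium markers was 505 to 563 FPKM in WT and 439.8 to 469.7 FPKM in Fyco1-/-, so the 2 genotypes did not overlap. Of the 7 tested, 2 were called lower, as were 5.02% of all tested genes. In whole lenses fewer cells of a type and less RNA per cell cannot be told apart, and the part of this difference in the results below was not tested. Retina, pigment cell and corneal markers each summed to at most 2.36 FPKM in any library. Vessel, pericyte, macrophage and red blood cell markers overlapped between genotypes, and no gene of these lists passed the test. Red blood cell markers varied from 81.3 to 195 FPKM in WT and from 102 to 241 FPKM in Fyco1-/-.

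The promoters of Sqstm1, Optn, Tax1bp1 and Tbk1 are shown because these 4 genes rose together in the mutant lenses. Sequences are from RefSeq (GRCm38.p6), 220 bases before the annotated start and 30 from it onward, and matches to any searched motif are in capitals.
Sqstm1, chr11:50210791-50211040, minus strand: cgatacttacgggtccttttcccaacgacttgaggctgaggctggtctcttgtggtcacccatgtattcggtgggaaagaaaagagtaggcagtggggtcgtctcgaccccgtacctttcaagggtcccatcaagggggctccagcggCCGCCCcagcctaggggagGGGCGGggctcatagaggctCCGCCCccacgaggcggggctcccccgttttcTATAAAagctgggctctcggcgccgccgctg
Optn, chr2:5064088-5064337, minus strand: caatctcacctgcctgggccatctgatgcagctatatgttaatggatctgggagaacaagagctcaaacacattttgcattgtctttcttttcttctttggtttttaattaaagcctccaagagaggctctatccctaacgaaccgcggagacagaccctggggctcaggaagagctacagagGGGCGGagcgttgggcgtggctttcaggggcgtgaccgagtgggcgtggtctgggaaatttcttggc
Tax1bp1 upstream start, chr6:52713509-52713758, plus strand: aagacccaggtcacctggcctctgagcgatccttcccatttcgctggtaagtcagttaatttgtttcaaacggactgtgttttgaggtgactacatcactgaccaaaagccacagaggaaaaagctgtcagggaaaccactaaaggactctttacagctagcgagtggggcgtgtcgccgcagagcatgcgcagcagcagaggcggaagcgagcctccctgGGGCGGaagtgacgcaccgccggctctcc
Tax1bp1 downstream start, chr6:52713945-52714194, plus strand: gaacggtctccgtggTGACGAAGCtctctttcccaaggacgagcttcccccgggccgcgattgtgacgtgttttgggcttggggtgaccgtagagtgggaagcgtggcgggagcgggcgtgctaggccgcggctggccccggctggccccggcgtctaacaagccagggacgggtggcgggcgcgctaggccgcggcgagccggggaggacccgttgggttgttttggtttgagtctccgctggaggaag
Tbk1, chr10:121586765-121587014, minus strand: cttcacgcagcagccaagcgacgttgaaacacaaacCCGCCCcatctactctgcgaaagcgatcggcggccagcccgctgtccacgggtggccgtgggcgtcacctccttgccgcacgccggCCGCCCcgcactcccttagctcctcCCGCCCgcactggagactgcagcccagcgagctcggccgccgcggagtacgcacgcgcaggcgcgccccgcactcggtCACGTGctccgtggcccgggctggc

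Motifs were searched on both strands of the whole RefSeq windows, which run from 250 bases before to 50 bases after a start. The GC box GGGCGG was in 7 of the 9 windows of the members, which cover 7 genes, and in 35.6% of all 32817 promoter windows. Sqstm1 was the member with the TATA box letters TATAAA, which 13.6% of all windows hold. In Sqstm1 these letters begin 1 base before the annotated start and run across it. The antioxidant response element core TGACNNNGC, the type of site bound by the factor NRF2, matched in the downstream window of Tax1bp1 at 205 bases before the start and in 12.4% of all windows. The letters CACGTG, the core of the element bound by the lysosomal gene factor TFEB, matched in Tbk1 just after the start and in 7.15% of all windows. Of the other motifs searched, the interferon-type motif GGAA, any 2 bases, GAAA matched in the upstream window of Nbr1 (2.72% of all windows). The longer TFEB form TCACGTGA (0.975% of all windows), the cAMP response element TGACGTCA (1.79%) and the NF-kB type motif GGG, any 2 bases, TTTCC (1.63%) were not among the letters of the members' windows. Of the motifs searched, the GC box alone was found in more than 1 of the 4 genes that rose. The GC box was also in windows of Nbr1, Calcoco1 and Tollip, which were not called. Sequence outside the windows was not searched, and any part of these motifs in the rise was not tested. CACGTG lies within TCACGTGA, and a match describes letters only, not a bound site.

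In WT lenses Sqstm1 was the most abundant of the 8 transcripts, at 42.3 ± 0.811 FPKM, above 93.3% of the 12001 genes tested. It was followed by Nbr1 (30.3 ± 1.17 FPKM), Tax1bp1 (26.9 ± 1.02 FPKM) and Optn (23.9 ± 1.70 FPKM), and no neighbours among these 4 overlapped, although the highest Optn and the lowest Tax1bp1 library both rounded to 25.8 FPKM. Tollip (9.90 ± 0.399 FPKM) and Calcoco1 (9.78 ± 0.145 FPKM) overlapped each other. Tbk1 (5.60 ± 0.615 FPKM) and Wdfy3 (4.90 ± 0.345 FPKM) also overlapped each other and were lowest, above 56.9% and 52.9% of tested genes. In Fyco1-/- lenses Sqstm1 remained first by level, whereas the means of Optn and Tax1bp1 were both above that of Nbr1. Tax1bp1 was clear of Nbr1 in every library, but Optn overlapped both Tax1bp1 and Nbr1, and in Fyco1-/- A it was below Nbr1.

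The comparison of genotypes asks whether transcripts of the cargo-selecting step differ when a protein of autophagosome transport is disrupted. Of the 8 genes, all of which were abundant enough to be tested, Sqstm1, Optn, Tax1bp1 and Tbk1 rose, none fell and 4 were not called. Among all tested genes 3.42% were called higher, 5.02% lower and 8.43% in either direction (limma on log2(FPKM + 0.5), Benjamini-Hochberg adjusted p under 0.05). Of all calls 40.5% were higher in Fyco1-/-, or 57.0% with median-of-ratios scaling of the libraries. In 5 members every Fyco1-/- library lay above every WT library, as in 11.1% of all tested genes, and in Calcoco1 every Fyco1-/- library lay below, as in 18.6% of all tested genes. Genotypes were apart in either direction in 29.7% of all tested genes. The median log2 fold change was 0.21 over the 8 members and -0.04 over all tested genes. The members were chosen with earlier results of these data known, so these contrasts with all tested genes describe the set and do not test it. Summed over the 8 members, the level was 154 ± 3.79 FPKM in WT, with libraries from 149.5 to 157 FPKM, and 189 ± 2.32 FPKM in Fyco1-/-, with libraries from 187 to 192 FPKM.

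**Figure D1:**
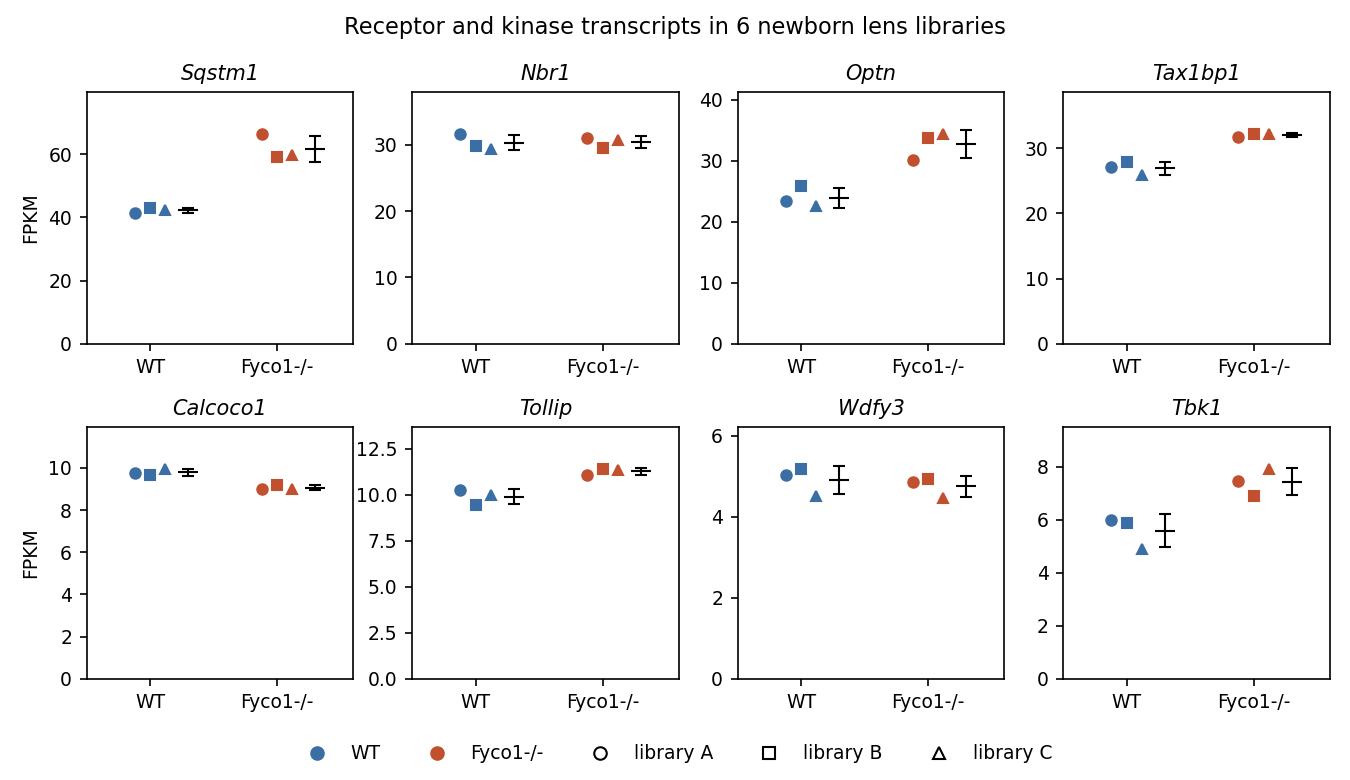
FPKM of the 8 genes in each library, WT in blue and Fyco1-/- in red, with the symbol giving the library letter and the bar the mean ± SD of 3 libraries. The 3 red points lie above the 3 blue points for Sqstm1, Optn, Tax1bp1, Tollip and Tbk1 and below them for Calcoco1, whereas the genotypes overlap for Nbr1 and Wdfy3.

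SQSTM1, or p62, polymerises through its PB1 domain, binds ubiquitin through a UBA domain and also holds KEAP1, the inhibitor of NRF2. Sqstm1 (ENSMUSG00000015837, GRCm38 chromosome 11, 50199366 to 50210827, transcribed from the minus strand, 8 merged exons) was at 41.5, 43.1 and 42.3 FPKM in the WT libraries, in the order A, B, C that is kept for every gene below. The Fyco1-/- libraries gave 66.4, 59.2 and 59.7 FPKM. The mutant libraries all stood above WT, with library A the highest and more spread among mutants than among WT. The rise was 1.46-fold (log2 0.54, SE 0.05, limma adjusted p = 0.000228). The size of this log2 change was larger than that of 95.5% of tested genes. Of the 3356 exon bases of Sqstm1, 580 overlap exons of Mrnip on the opposite strand, which was listed at a mean of 1.78 FPKM, and since the handling of strand is not given in the sources used here, reads there cannot be assigned to either gene.

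NBR1 resembles p62 in layout, with PB1 and UBA domains and an LC3-interacting motif, and binds p62 through the PB1 domain. Nbr1 (chromosome 11, 101552149 to 101581951, transcribed from the plus strand) gave 31.7, 29.9 and 29.4 FPKM for WT against 31.1, 29.5 and 30.8 FPKM for the mutants. Every mutant value lay within the WT range. The log2 fold change was 0.01, with a 95% interval from -0.11 to 0.12 (limma adjusted p = 0.963), and its sign turned under TPM scaling (-0.0086) and quantile normalization (-0.00057). That interval lies wholly below the interval of Sqstm1, which ran from 0.42 to 0.66.

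Optineurin binds ubiquitin chains through its UBAN region and is phosphorylated by TBK1 next to its LC3-interacting motif. Optn (chromosome 2, 5020642 to 5064051, transcribed from the minus strand) stood at 23.3, 25.8 and 22.6 FPKM in the WT lenses. Mutant lenses reached 30.1, 33.8 and 34.4 FPKM. All mutant libraries were above all WT libraries, although, unlike Sqstm1, library A was the lowest mutant. The rise was 1.37-fold (log2 0.44, SE 0.07, limma adjusted p = 0.00354).

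TAX1BP1 binds ubiquitin through zinc fingers at its end and recruits the initiation factor FIP200, encoded by Rb1cc1. Tax1bp1 (chromosome 6, 52713729 to 52766780, transcribed from the plus strand) came to 27.0, 27.9 and 25.8 FPKM in the WT libraries, while the mutants came to 31.7, 32.2 and 32.2 FPKM. The mutant libraries stood close together, with an SD of 0.262 FPKM. The rise was the smallest of the 4 called, 1.19-fold (log2 0.25, SE 0.05, limma adjusted p = 0.0127).

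CALCOCO1, a relative of TAX1BP1, is a receptor for the endoplasmic reticulum and Golgi. Calcoco1 (chromosome 15, 102706777 to 102722178, transcribed from the minus strand) was found at 9.73, 9.66 and 9.94 FPKM in WT, compared with 8.99, 9.20 and 9.01 FPKM in mutant lenses. It was the one member whose mutant libraries all lay below WT, but the difference was not called (log2 -0.10, 95% interval -0.24 to 0.03, limma adjusted p = 0.333).

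Tollip is an adaptor of Toll-like receptor signalling and of endosomes that binds ubiquitin through a CUE domain. Tollip (chromosome 7, 141874813 to 141918507, transcribed from the minus strand) reached 10.3, 9.47 and 9.97 FPKM in the WT pools but 11.1, 11.4 and 11.3 FPKM in the mutant pools. The libraries of the 2 genotypes were apart, with a ratio of means of 1.14, but the difference did not pass after adjustment (log2 0.18, 95% interval 0.04 to 0.32, limma adjusted p = 0.110). WDFY3 is a large scaffold with a FYVE domain that brings p62-positive aggregates to the ATG5 conjugation complex. Wdfy3 (chromosome 5, 101832956 to 102069921, transcribed from the minus strand) was low throughout, with WT at 5.02, 5.18 and 4.52 FPKM beside mutants at 4.87, 4.93 and 4.46 FPKM. Library C was the lowest of each genotype, and the genotypes overlapped (log2 -0.04, 95% interval -0.23 to 0.15, limma adjusted p = 0.822). Its sign turned with median-of-ratios scaling (0.0040) and with quantile normalization (0.02).

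Tbk1 (chromosome 10, 121546455 to 121586787, transcribed from the minus strand) had 6.00, 5.90 and 4.89 FPKM for the WT pools. For the mutant pools it had 7.47, 6.91 and 7.92 FPKM. The mutant libraries all lay above WT, and WT C was the lowest library. The rise was 1.33-fold (log2 0.38, SE 0.09, limma adjusted p = 0.0325). This call was less firm than the other 3, being lost without WT B (adjusted p = 0.0592), WT C (0.0738), Fyco1-/- A (0.0716) or Fyco1-/- C (0.109) and with no filter on low values (0.0919). The replicate block also ended it (0.0608). For Tbk1 the authors' deposited table listed 0.41 on the log2 scale, with an adjusted p of 0.00296.

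The authors' deposited table called the same 4 members higher at an adjusted p under 0.05, with log2 fold changes of 0.58 for Sqstm1, 0.48 for Optn and 0.29 for Tax1bp1 beside that of Tbk1. Among the 13066 genes with an adjusted p in the authors' deposited table, 9.37% passed in either direction and 5.22% were higher. In the authors' deposited table Tollip was just outside (adjusted p = 0.0563), and Nbr1, Calcoco1 and Wdfy3 had adjusted p of 0.669, 0.827 and 0.988.

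**Figure D2:**
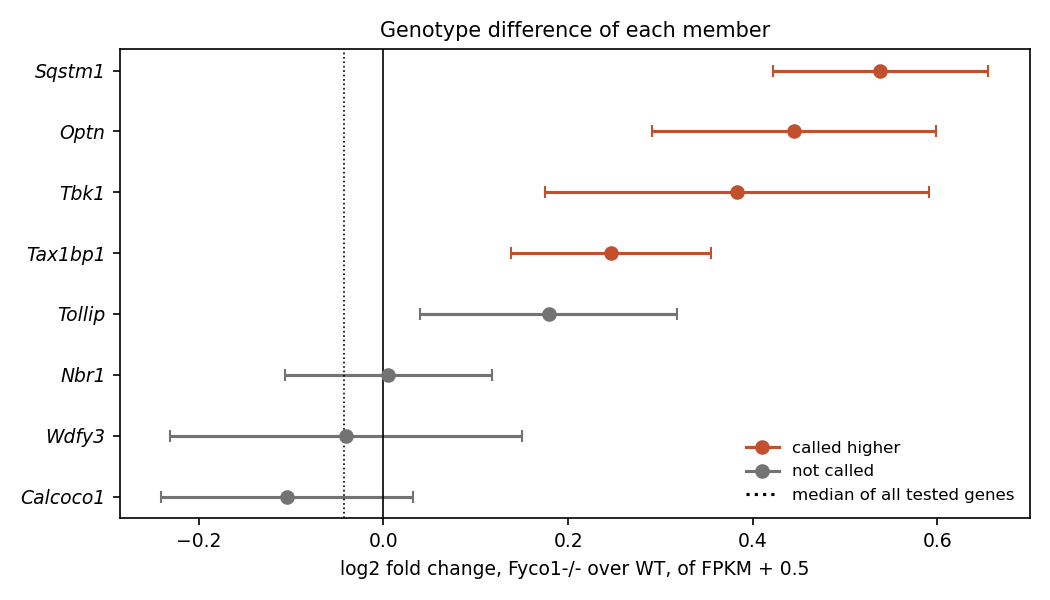
Log2 fold change of each member, Fyco1-/- over WT, on the scale of FPKM + 0.5, with bars for the 95% interval of the limma fit and a dotted line at the median of all tested genes. The intervals of Sqstm1, Optn, Tbk1 and Tax1bp1, in red, were called higher, and the gray intervals of Nbr1, Wdfy3 and Calcoco1 span 0.

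Ratios within a library do not change when all its values are multiplied by the same factor. Each member was therefore also divided by Nbr1, the relative of Sqstm1, a comparison added after the values were seen. Nbr1 was nearly level over the libraries (29.4 to 31.7 FPKM), so the ratios largely repeat the FPKM differences and are no separate result. There were 1.31, 1.44 and 1.44 Sqstm1 FPKM per Nbr1 FPKM in WT, against 2.14, 2.01 and 1.94 in the mutants. The ratio of Optn to Nbr1 went from 0.789 ± 0.0664 to 1.08 ± 0.0951, that of Tax1bp1 from 0.888 ± 0.0399 to 1.05 ± 0.0353 and that of Tbk1 from 0.184 ± 0.0163 to 0.244 ± 0.0118. In these 4 and in Tollip (0.326 ± 0.0113 to 0.370 ± 0.0153) the 3 mutant ratios lay above the 3 WT ratios. For each of these 5 the two-sided exact permutation test over libraries gave p = 0.1, the smallest value 3 against 3 allows (0.14 adjusted over 7 ratios), so this design cannot pass 0.05 with that test. The ratios of Calcoco1 (exact p = 0.2) and Wdfy3 (exact p = 0.5) overlapped between genotypes. As a share of the summed FPKM of the 8 members, Sqstm1 made up 27.5 ± 0.727% in WT and 32.6 ± 1.80% in Fyco1-/-, and Nbr1 19.7 ± 0.717% and 16.1 ± 0.258%.

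**Figure D3:**
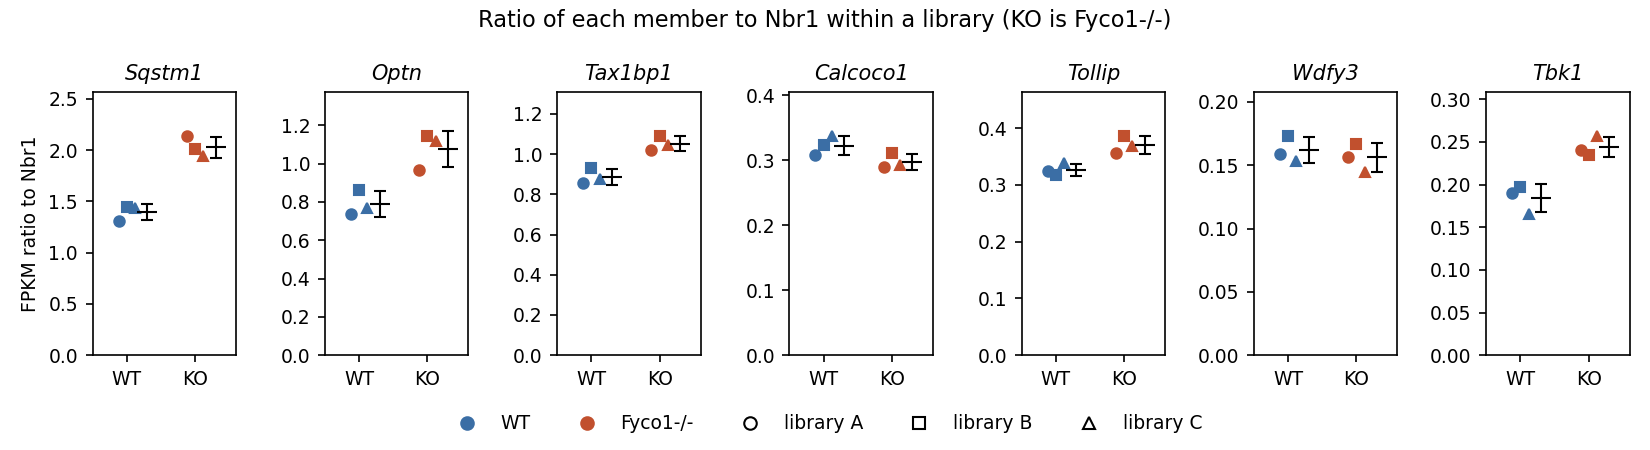
FPKM of 7 members divided by the FPKM of Nbr1 in the same library, with points for libraries and bars for the mean ± SD of 3. The mutant points (KO, red) lie above the WT points (blue) for Sqstm1, Optn, Tax1bp1, Tollip and Tbk1, and overlap them for Calcoco1 and Wdfy3.

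Other genes of the pathway were read from the same fit, in which 3.42% of all tested genes were called higher and 5.02% lower. Of 18 tested receptors for other cargo, such as the endoplasmic reticulum, mitochondria and ferritin, 1 rose and none fell, with a median log2 fold change of -0.05. Counted in either direction, 2 were called with the stricter filter on low values, TPM scaling, quantile normalization, the replicate block or without Fyco1-/- C. The uncalled gene of this list nearest the threshold was lower in Fyco1-/- (log2 -0.26, limma adjusted p = 0.0558). The riser was Tex264, a receptor for the endoplasmic reticulum, from 36.7 ± 1.15 to 44.0 ± 0.441 FPKM (limma adjusted p = 0.00597). Of the 5 LC3 and GABARAP genes, whose products the receptors bind, Gabarapl1 rose from 105 ± 0.273 to 132 ± 5.24 FPKM (limma adjusted p = 0.00083) and the other 4 were not called. Gabarapl1 shares 379 identical bases with 1700101I11Rik, listed at a mean of 12.2 FPKM, so reads may be split between them. Of 8 genes of the ULK and FIP200 initiation complex and its membrane partners none was called in either direction, but 1 was with quantile normalization or without WT B and 2 with median-of-ratios scaling. The 2 genes of this list nearest the threshold differed in direction (log2 0.33 and -0.23, limma adjusted p = 0.0740 and 0.0882). The most abundant of the 8, Wipi2, a phosphoinositide-binding initiation factor, was at 24.1 ± 0.509 and 24.6 ± 0.431 FPKM in WT and Fyco1-/-.

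None of 6 tested genes around TBK1 (adaptors and signalling partners) was called, and their median log2 fold change was -0.06. The TBK1 adaptor gene Azi2 was at 9.46 ± 0.292 and 9.24 ± 0.846 FPKM in WT and Fyco1-/-. The sister kinase gene Ikbke was too low to be tested, at 0.239 ± 0.0732 and 0.280 ± 0.0373 FPKM. Of the 4 ubiquitin genes, the polyubiquitin gene Ubb fell from 531 ± 35.9 to 401 ± 3.56 FPKM (log2 -0.40, limma adjusted p = 0.000505), and the other 3 were not called. Ubb shares 98.5% identity over 685 bases with the pseudogene Gm1821, which was itself listed at a mean of 85.5 FPKM, so reads may be split between them. Of 14 tested ubiquitin ligases, deubiquitinases and their regulators, Pink1, the kinase that marks damaged mitochondria, rose from 14.1 ± 0.550 to 17.3 ± 1.70 FPKM (limma adjusted p = 0.0426). The call of Pink1 held without Fyco1-/- A but was lost when any other library was left out (adjusted p = 0.0771 to 0.139), under TPM scaling (0.0592) and with no filter on low values (0.113).

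Genes of the KEAP1 and NRF2 branch, which p62 can switch on by holding KEAP1 and to which Sqstm1 itself belongs as a known target, were divided. The list had 13 tested genes, of which 2 rose and 4 fell, with a median log2 fold change of -0.07. Of all tested genes 3.42% rose and 5.02% fell. Hmox1, which encodes heme oxygenase, rose from 237 ± 6.67 to 501 ± 43.6 FPKM (limma adjusted p = 5.7e-06), and Ftl1, which encodes the ferritin light chain, from 1217 ± 11.1 to 1549 ± 27.5 FPKM (limma adjusted p = 4.97e-05). Ftl1 has near-identical pseudogene copies, of which the most abundant, Ftl1-ps1, was listed at a mean of 2.77 FPKM. Gclc, of glutathione synthesis, fell from 14.1 ± 0.137 to 10.8 ± 0.355 FPKM (limma adjusted p = 0.00416), and the ferritin heavy chain gene Fth1 from 348 ± 6.24 to 308 ± 8.02 FPKM (limma adjusted p = 0.0111). The other falls, named after their values were seen, were Me1, the gene of malic enzyme, which has near-identical pseudogenes (log2 -0.33, limma adjusted p = 0.0132), and Nfe2l2, which encodes NRF2 (log2 -0.42, limma adjusted p = 0.0156). The call of Nfe2l2 was lost without WT A (adjusted p = 0.0642), WT B (0.0517) or Fyco1-/- C (0.0562), that of Me1 without WT B (0.0513), and that of Fth1 with median-of-ratios scaling (0.105).

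None of 9 tested genes of the TFEB family and its controllers was called, the most abundant being the GTPase gene Rragc at 16.9 ± 0.384 and 19.5 ± 0.935 FPKM in WT and Fyco1-/-. Rragc passed with median-of-ratios scaling (limma adjusted p = 0.0421). Of 7 tested genes for proteins that bind through PB1 domains, as p62 and NBR1 do, the kinase gene Map3k3 fell from 5.11 ± 0.668 to 3.77 ± 0.276 FPKM (limma adjusted p = 0.0458). Leaving out any 1 of the 6 libraries ended that call (adjusted p = 0.0503 to 0.150), as did the replicate block (0.0607), quantile normalization (0.0615), median-of-ratios scaling (0.0502) and no filter on low values (0.115).

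**Figure D4:**
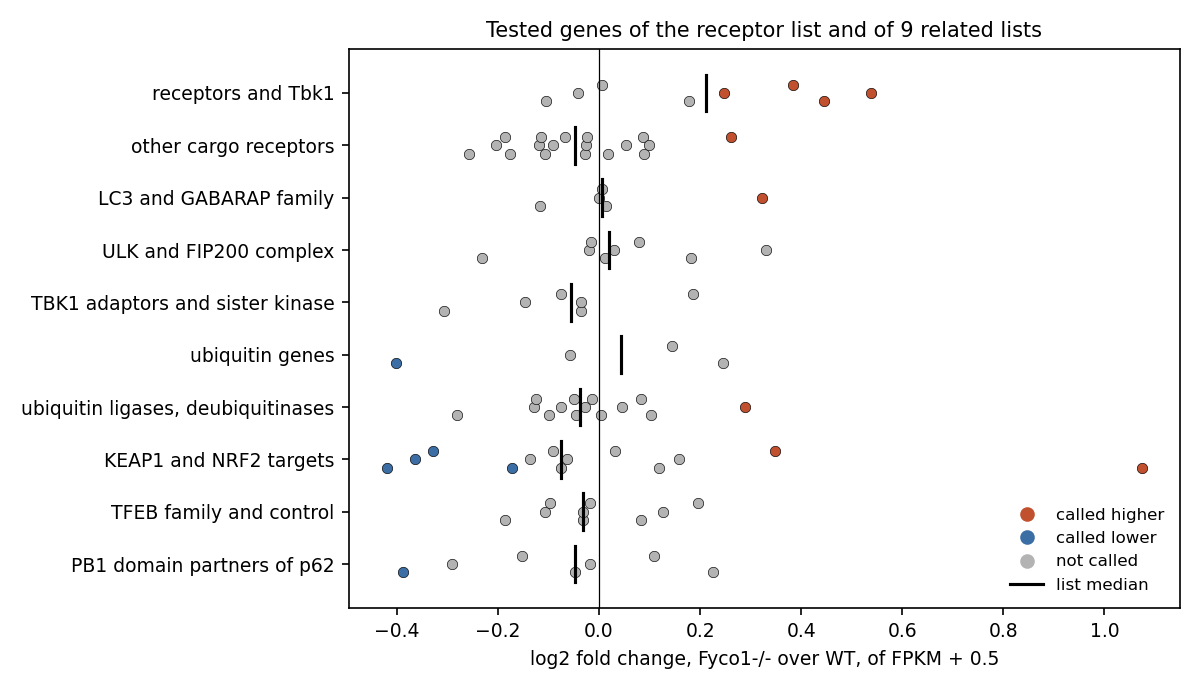
Log2 fold change, Fyco1-/- over WT on the scale of FPKM + 0.5, of every tested gene of the receptor list and 9 related lists, each point a gene and each black bar the list median. The receptors and Tbk1 have 4 called points to the right of 0 and a median of 0.21, whereas the medians of the other lists lie between -0.07 and 0.04. All the lists were chosen with earlier results of these data known.

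The profile over the 6 libraries was compared with all tested genes by the root mean square difference of log2 values after each gene's own mean was subtracted. For Sqstm1 the closest gene was Dnajb1, which encodes a co-chaperone of the HSP70 system, at a difference of 0.0151 against a median of 0.318 over all tested genes. The mean of Dnajb1 was 81.0 ± 1.42 FPKM in WT lenses, against 117 ± 6.50 FPKM in mutant lenses (limma adjusted p = 0.000125). The next were Tmem108 and Ceacam2, at differences of 0.0400 and 0.0417, and Ceacam2 is 98.8% identical to Ceacam1 over 1630 bases. For Optn the closest were Thrsp (0.0584), Eif5a2 (0.0610) and Rufy3 (0.0639), and for Tax1bp1 they were 9530082P21Rik (0.0143), Prkca (0.0259) and Tex264 (0.0261). For Tbk1 they were Pfkm (0.0464), BC022960 (0.0510) and Arid4a (0.0537). Among pairs of members the closest were Tax1bp1 and Tollip, at 0.0655, and the farthest Sqstm1 and Calcoco1, at 0.328. The measure includes the genotype difference, so it is largely set by the log2 fold changes given above and is no separate result. Tax1bp1 differed from Nbr1 by 0.129 and from Sqstm1 by 0.160, and Sqstm1 differed from Optn by 0.131. These differences are descriptions over the same 6 libraries, with no test.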

How the data were processed

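The series holds 6 RNA-seq libraries of newborn mouse lens, 3 WT and 3 Fyco1-/-. Per the labels' protocols and the series' design text, the authors used STAR 2.5 for alignment (GRCm38/mm10) and HTSeq 0.6.1 for gene quantification, and they deposited FPKM values. The deposited log2 fold changes and the deposited p-values, raw and adjusted, came from the authors' DESeq2 run, per the design text. The annotation, the handling of strand and the total used for scaling are not given in the sources used here.

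From the FPKM values, genes with a mean of at least 0.5 FPKM were tested (12001 of 22298) on log2(FPKM + 0.5) with limma 3.58.1 in R 4.3.3, with trend and robust moderation, genotype as the only term and Benjamini-Hochberg adjustment over all tested genes, two-sided. Log2 fold changes on this scale understate those of low genes, whereas fold values are ratios of mean FPKM. The test was also run on simulated independent normal values, which hold no batch or scaling difference between libraries, and the outcome is not given here. Depth was estimated from the steps between low values with exon lengths of GENCODE M21: 49.8% to 52.1% of values of up to 20 fragments fell within 0.05 of a whole number, where 10% would by chance. Library totals far above or below the estimates were not tried. Positions are from GENCODE M21 (GRCm38). Members' and some named genes' transcripts were searched against all others with blastn 2.17.0 for 95% identity over at least 100 bases.

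The members and gene lists were chosen with earlier results of these data known. Named genes are the members, Fyco1, up to 4 called genes of each list (or its most abundant gene) and the 3 nearest profiles of each called member. Alternatives were other pseudocounts (0.1 and 1), filters, moderation, scalings, the replicate block and leaving out each library.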

Additional observations from a re-analysis of the deposited data

How the results depend on the processing

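Sqstm1, Optn and Tax1bp1 were called higher under all 16 alternatives, and Calcoco1 and Tollip were called under none. Without 1 library the limma adjusted p of Tax1bp1 came close to the threshold, at 0.0255 to 0.0462. It was 0.000384 to 0.00191 for Sqstm1 and 0.00212 to 0.0183 for Optn. Leaving out 1 library at a time gave log2 fold changes of 0.49 to 0.57 for Sqstm1, 0.41 to 0.50 for Optn, 0.22 to 0.27 for Tax1bp1 and 0.30 to 0.43 for Tbk1, and 3 or 4 called members. For Nbr1 it gave -0.015 to 0.036 and for Wdfy3 -0.093 to 0.00044, neither ever called. Nbr1 was also negative under TPM scaling (-0.0086) and quantile normalization (-0.00057), and Wdfy3 positive under quantile normalization (0.021) and median-of-ratios scaling (0.0040). Azi2 turned positive with quantile normalization (0.00097), with median-of-ratios scaling (0.011) and in 1 of the fits that leave out a library, which ran from -0.093 to 0.033. With no filter on low values the log2 fold change of Tbk1 was still 0.38 but not called (adjusted p = 0.0919). That fit tests more genes, and its variance moderation is also fitted anew over them. Letters A, B and C are not said to mark a shared litter, batch or day. Deviations of same-lettered libraries correlated at -0.03, 0.03 and 0.03, and 4 of 6 libraries correlated best with their own letter. With 3 libraries per genotype these values cannot decide whether the letters pair libraries. With the replicate block 929 genes were called, and Tbk1 kept its log2 fold change of 0.38 with an adjusted p of 0.0608. Calls over all tested genes numbered 1012, but 568 with no filter on low values and 607 to 863 without 1 library, where fewer samples are fitted (612 without WT A, 607 without WT B, 673 without Fyco1-/- B and 642 without Fyco1-/- C). Of all calls 40.5% were higher, against 57.0% with median-of-ratios scaling. The 26 other named genes kept direction and side of the threshold in 357 of 416 comparisons. FPKM without counts limits what depth can show, and lens pools give no cell types.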
